A study of Mus musculus with 78 samples.

Results

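Adenylyl cyclases are the enzymes that make cyclic AMP (cAMP) from ATP, and 10 genes of the family (Adcy1 to Adcy10) were listed in both deposited count tables. Described here are 7 of them, Adcy1, Adcy2, Adcy3, Adcy6, Adcy7, Adcy8 and Adcy9, out of 55367 gene symbols. They were chosen by name, with earlier results of these data known. They are the membrane-bound members other than Adcy4 and Adcy5, the striatal isoform.

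The mice carried a constitutive Acss2 deletion (ACSS2 KO) or were wild type (WT), on the C57BL6/J strain. The deletion was made with CRISPR guides in introns on either side of exons 3 to 7, and the labels give a backcross after founding but no clone or line number. There were 3 adult mice for each sex and genotype, and poly(A) RNA from up to 7 brain regions of each was sequenced, giving 78 libraries (40 KO, 38 WT). Every mouse, WT included, was single-housed and had access to 15% ethanol in dark-phase sessions of 2 h or 4 h (drinking in the dark, which models bingeing), so no group was ethanol-naive.

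A receptor that couples to a stimulatory G protein raises cyclase activity, one that couples to an inhibitory G protein lowers it, and the cAMP made acts through protein kinase A, exchange factors and channels until phosphodiesterases break it down. The isoforms differ in what else they sense. Adcy1 and Adcy8 are stimulated by calcium and calmodulin and are known for their part in synaptic plasticity and memory, Adcy3 is the cyclase of olfactory neurons and of neuronal primary cilia, Adcy2 and Adcy7 are stimulated by G protein beta-gamma subunits, Adcy6 is the close relative of Adcy5 and is inhibited by calcium, and Adcy9 is the member that responds little to forskolin.

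The promoter windows below show the upstream sequence of Adcy1, Adcy2 and Adcy9 beside that of Adcy7, the least abundant member. Those of Adcy3, a member about as abundant as Adcy9, are described but not printed. Each is the 250 bases before a RefSeq start on GRCm38.p6, printed 5′ to 3′ on the gene's strand. Capitals mark the GC box GGGCGG or its reverse complement CCGCCC, and the core TGACG of the cAMP response element, or the core's reverse complement CGTCA. The Adcy1 window lay at chr11:7063183-7063432 on the plus strand, the Adcy2 window at chr13:68999542-68999791 on the minus strand, the Adcy9 window at chr16:4420499-4420748 on the minus strand and the Adcy7 window, that of the first of its RefSeq starts, at chr8:88282742-88282991 on the plus strand.
Adcy1: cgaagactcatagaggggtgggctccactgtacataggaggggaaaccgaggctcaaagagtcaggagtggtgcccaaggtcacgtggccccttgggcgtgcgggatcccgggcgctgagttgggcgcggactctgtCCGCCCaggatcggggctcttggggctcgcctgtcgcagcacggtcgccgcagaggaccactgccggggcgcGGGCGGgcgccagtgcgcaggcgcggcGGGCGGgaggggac
Adcy2: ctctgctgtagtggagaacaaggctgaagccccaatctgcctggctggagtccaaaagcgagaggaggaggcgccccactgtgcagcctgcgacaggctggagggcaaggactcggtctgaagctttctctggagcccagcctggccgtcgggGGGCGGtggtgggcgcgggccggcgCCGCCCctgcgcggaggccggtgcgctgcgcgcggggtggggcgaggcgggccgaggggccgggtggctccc
Adcy9: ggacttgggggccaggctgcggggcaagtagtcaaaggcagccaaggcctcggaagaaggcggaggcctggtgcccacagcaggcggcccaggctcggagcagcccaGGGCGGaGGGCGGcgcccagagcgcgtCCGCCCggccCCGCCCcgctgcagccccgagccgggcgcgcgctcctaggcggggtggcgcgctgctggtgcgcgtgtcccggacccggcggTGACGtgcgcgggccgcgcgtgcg
Adcy7: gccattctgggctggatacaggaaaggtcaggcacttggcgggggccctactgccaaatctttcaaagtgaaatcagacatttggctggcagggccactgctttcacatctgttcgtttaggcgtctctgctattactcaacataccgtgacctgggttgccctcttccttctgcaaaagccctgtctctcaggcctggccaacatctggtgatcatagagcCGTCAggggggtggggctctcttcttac

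GC content was 71.2% in the Adcy1 window, 73.2% in that of Adcy2, 78.8% in that of Adcy9 and 54.0% in that of Adcy7, where the median over 32851 windows of 27025 genes was 52.4%. The GC box was found 3 times in the Adcy1 window, 2 times in that of Adcy2 and 4 times in that of Adcy9, and it was not found in that of Adcy7. On either strand, 32.7% of all windows held it. The core was found once in the Adcy9 window and once in the Adcy7 window, and 17.8% of all windows held it. The full element TGACGTCA, which contains the core and was held by 1.55% of all windows, was found in none of the 8 windows of the 5 members with an entry (Adcy1, Adcy2, Adcy3, Adcy7 and Adcy9). Nor was TATAAA, held by 12.4%. The ratio of observed to expected CpG was 0.856 for Adcy1 and 0.886 for Adcy9 against 0.275 for Adcy7, with a median of 0.374 over all windows. Windows that are not printed divided the same way only in part. Those of the other Adcy7 starts were also lower in GC content and CpG ratio than the windows of Adcy1, Adcy2 and Adcy9. They had 56.0% and 56.4% GC, a CpG ratio of 0.154 and 0.160, and 0 and 1 GC boxes. The Adcy3 windows differed from each other. One Adcy3 window had 68.8% GC, a CpG ratio of 0.913 and 1 GC box, and the other had 56.0%, 0.3695 and none. Adcy6 and Adcy8 had no entry.

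All 7 are protein-coding genes. In GENCODE M21 on GRCm38, Adcy1 spans chr11:7063489-7178506 (plus strand), Adcy2 chr13:68620043-68999541 (minus), Adcy3 chr12:4133103-4213525 (plus), Adcy6 chr15:98589973-98610076 (minus), Adcy7 chr8:88272403-88329962 (plus), Adcy8 chr15:64697084-64922296 (minus) and Adcy9 chr16:4287529-4420498 (minus). The printed Adcy1, Adcy2 and Adcy9 windows lie just upstream of these spans, and the Adcy7 window lies inside its span. Exonic length ran from 4.211 kb (Adcy2) to 12.522 kb (Adcy1), so levels of different genes are compared as counts scaled to a common library total (CPM) divided by exonic length (CPM per kb). Exons of 3 members overlap a gene on the other strand, and the strand setting of the counting is not given in the sources used here. Adcy3 shares 1380 bases with Cenpo, whose mean was 3.08 to 4.50 CPM by region, and Adcy2 shares 189 bases with the antisense gene Gm35161, whose mean was 1.30 to 6.67 CPM. Adcy6 shares 605 bases with the antisense gene Gm29331, whose mean was at most 0.0212 CPM in any region.

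Acss2 separated the genotypes in every library, with 0.971 to 13.96 CPM (median 7.32) in KO and 35.9 to 73.8 CPM (median 51.8) in WT. Total counts were 4454420 to 14487778 in the 47 libraries of amygdala, dorsal hippocampus and both parts of the striatum, and 629635 to 1228828 in the 31 of cortex, prefrontal cortex and ventral hippocampus. The label's library numbers restart between these deeper and shallower regions, so region and set cannot be told apart across them. A count of 3 stood for 0.207 to 0.673 CPM in the deeper libraries and 2.44 to 4.76 CPM in the shallower ones. Such floors cover counting error only. In 9 libraries marker genes or sex-chromosome genes went against the label. The striatal projection neuron score, the mean log2(CPM + 1) of 9 marker genes, had a median of 8.84 in dorsal striatum and 8.57 in ventral striatum. It was 4.88 and 3.97 in the dorsal striatum libraries of male KO mouse 10 and female WT mouse 23, where the cortical excitatory score was 6.78 and 6.66, and 6.29 and 5.26 in the ventral striatum libraries of male KO mouse 10 and male WT mouse 13. It was 7.41, 7.39 and 8.35 in the prefrontal cortex library of female KO mouse 5 and the amygdala and ventral hippocampus libraries of female KO mouse 6. The ventral hippocampus library of male KO mouse 10 had a hippocampal score of 4.46, and the sex-chromosome genes of the prefrontal cortex library of female WT mouse 23 were those of a male. Values without these 9 libraries are given beside many of the results that include them.

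Per kb, Adcy1 and Adcy2 were the most abundant of the 7 genes in all 7 regions and Adcy7 the least. The mean level of Adcy1 ran from 21.4 ± 9.29 CPM per kb (SD, n = 12) in ventral striatum to 132 ± 38.6 (SD, n = 12) in dorsal hippocampus. That of Adcy2 stayed between 26.5 ± 14.2 (SD, n = 12) in dorsal striatum and 43.9 ± 5.04 (SD, n = 12) in dorsal hippocampus. Region means lay between 8.12 and 14.3 CPM per kb for Adcy3, 9.07 and 15.0 for Adcy9, 6.36 and 11.4 for Adcy6, 1.55 and 3.75 for Adcy8, and 0.536 and 1.98 for Adcy7. In bulk tissue, fewer cells of a type and less RNA per cell cannot be told apart.

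**Figure D1:**
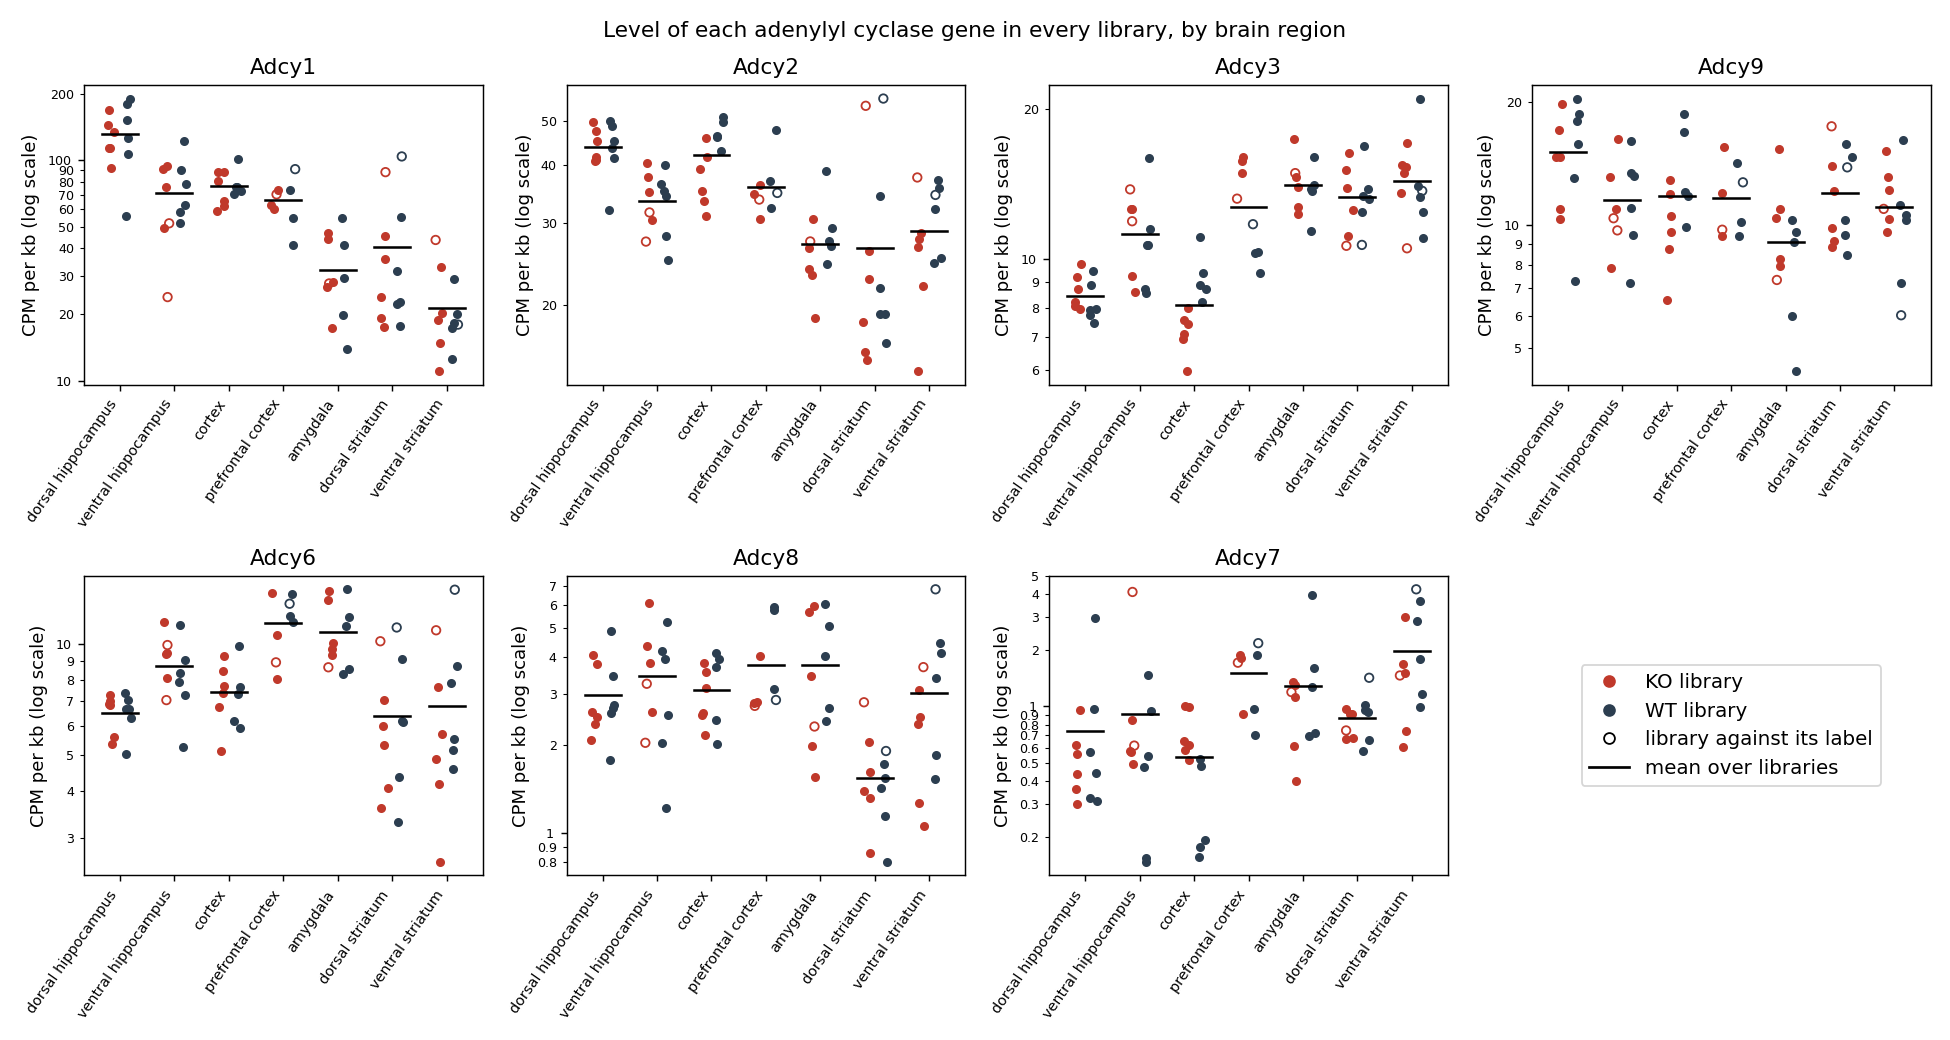
Level of each of the 7 genes in CPM per kb (log scale) in every library, by region, with KO libraries in red and WT libraries in dark blue, open circles for the 9 libraries whose markers go against their label, and a black line at the mean. Adcy1 spans the widest range, from 21.4 CPM per kb in ventral striatum to 132 in dorsal hippocampus on average, and KO and WT points are interleaved in most regions.

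The sum over the 7 genes was highest in dorsal hippocampus, at 209 ± 45.3 CPM per kb (SD, n = 12), and lowest in ventral striatum, at 87.4 ± 15.8 (SD, n = 12). Cortex had 149 ± 19.5 (n = 11), prefrontal cortex 143 ± 13.7 (n = 8), ventral hippocampus 140 ± 28.4 (n = 12), dorsal striatum 101 ± 46.2 (n = 12) and amygdala 97.8 ± 14.7 (n = 11). Without the libraries that went against their label, dorsal striatum fell to 82.8 ± 20.2 (n = 10), below ventral striatum at 83.3 ± 12.9 (n = 10). Adcy5 alone had 141 ± 66.0 CPM per kb in dorsal striatum and 132 ± 59.5 in ventral striatum, more than the 7 genes together, and 16.1 ± 2.39 in dorsal hippocampus. It made up 56.9% of the sum over all 10 genes in ventral striatum and 56.6% in dorsal striatum, against 7.49% in dorsal hippocampus. Without the same libraries these striatal shares were 62.8% and 65.7%. Adcy4, an isoform stimulated by beta-gamma subunits, had region means of 2.40 to 4.87 CPM, and Adcy10, the soluble cyclase, at most 0.192 CPM.

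Within the 7-gene sum, Adcy1 took 61.8% ± 5.98 (SD, n = 12) in dorsal hippocampus, 51.1% ± 4.46 (n = 11) in cortex, 49.0% ± 9.83 (n = 12) in ventral hippocampus and 45.7% ± 6.68 (n = 8) in prefrontal cortex. Its share was 36.6% ± 8.71 (n = 12) in dorsal striatum, 31.5% ± 8.83 (n = 11) in amygdala and 23.8% ± 6.50 (n = 12) in ventral striatum. Ventral striatum was the region where the mean share of Adcy2, 32.9% ± 5.81, was above that of Adcy1. Adcy2 otherwise held 21.5% to 28.3%. The share of Adcy3 went the other way from that of Adcy1, from 4.24% ± 1.13 in dorsal hippocampus to 16.9% ± 4.40 in ventral striatum. The single-library shares of Adcy1 in dorsal hippocampus, 47.3% to 69.1%, did not overlap those in ventral striatum, 14.8% to 36.7%. Shares of a sum depend on one another, and no test was made of them.

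**Figure D2:**
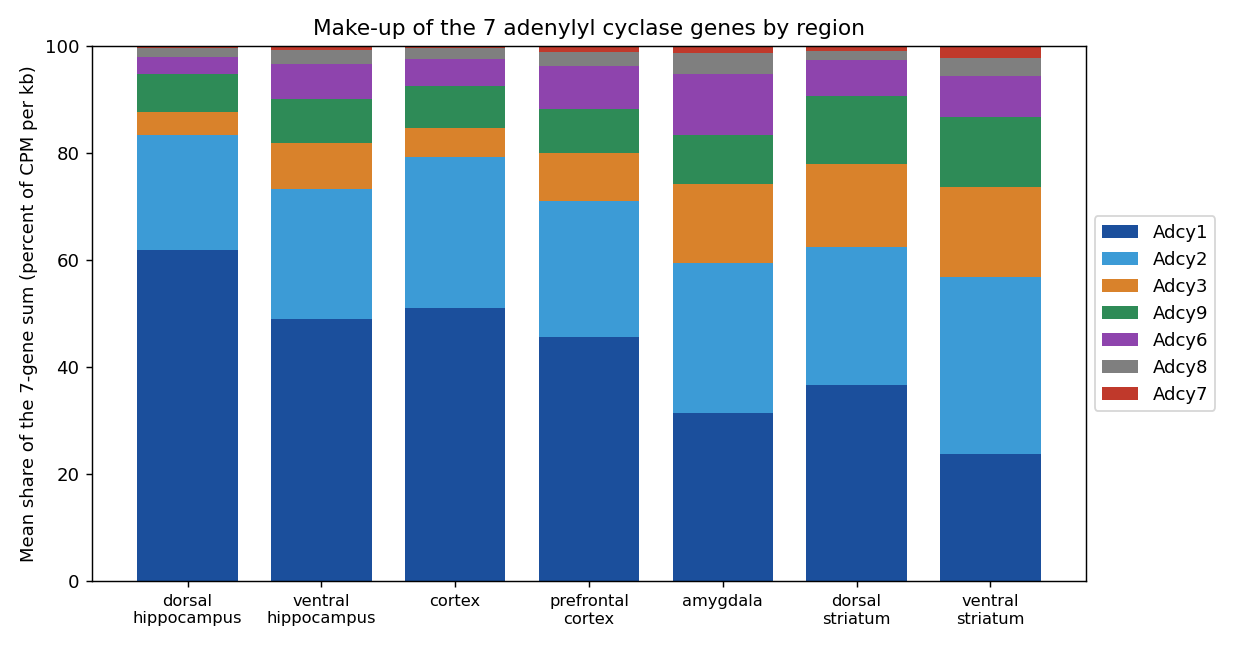
Mean share of each gene in the 7-gene sum of CPM per kb, in percent, stacked for each region (8 to 12 libraries). The dark blue Adcy1 part shrinks from 61.8% in dorsal hippocampus to 23.8% in ventral striatum, while the Adcy3 part grows from 4.24% to 16.9%.

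The levels of all 7 genes differed between regions in edgeR's quasi-likelihood F test over the 78 libraries, with adjusted p from 4.71e-16 for Adcy1 to 0.0012 for Adcy9. Of all 15663 genes tested 86% were called, so the count of 7 is near the background. Contrasts between regions of the same set gave these counts. Of the 7 members, 6 differed between amygdala and dorsal hippocampus (background 36.1% of genes), 5 between ventral striatum and dorsal hippocampus (50.2%) and 5 between dorsal striatum and dorsal hippocampus (51.2%). Ventral striatum and dorsal striatum differed in 3 (12.8%), dorsal striatum and amygdala in 3 (52.1%), ventral striatum and amygdala in 2 (42.9%), cortex and prefrontal cortex in 3 (30.2%), cortex and ventral hippocampus in 1 (22.8%) and ventral hippocampus and prefrontal cortex in none (23.6%). The median absolute log2 difference of the members between amygdala and dorsal hippocampus was 0.75, against 0.23 over all genes. Between ventral and dorsal striatum it was 0.14, against 0.15. Across sets, where region and set cannot be told apart, 36 of 84 member contrasts passed, with 17.1% to 53.4% of all genes called in a contrast.

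Adcy1, stimulated by calcium and calmodulin, ranged in single libraries from 699 to 2390 CPM (median 1640) in dorsal hippocampus, from 736 to 1271 (median 944) in cortex, from 300.1 to 1539 (median 869) in ventral hippocampus and from 519 to 1143 (median 832) in prefrontal cortex. It ranged from 219 to 1305 CPM (median 346) in dorsal striatum, from 174 to 689 (median 350.2) in amygdala and from 139 to 545 (median 232) in ventral striatum. No dorsal hippocampus library was as low as any ventral striatum library. Dorsal hippocampus was above ventral striatum by a log2 difference of 2.70 ± 0.25 (SE), with adjusted p = 4.01e-15 by edgeR. In the order of means, dorsal hippocampus was above cortex (adjusted p = 0.0050, across sets), prefrontal cortex above dorsal striatum (0.0218, across sets) and amygdala above ventral striatum (0.0411). The last call ended with the mouse as a block (0.0507) and without mouse 1, 2, 3, 5, 6, 11, 13 or 23 (0.0561 to 0.116), and it held without the libraries against their label (0.0108). That of prefrontal cortex over dorsal striatum ended without mouse 2, 5 or 6 (0.0506 to 0.0821) and without the prefrontal cortex library of mouse 23 (0.0528). For dorsal hippocampus over cortex the adjusted p reached 0.147 over the alternative runs (edgeR or DESeq2). Cortex, ventral hippocampus and prefrontal cortex did not pass the test as neighbours (0.749 and 0.862), nor did dorsal striatum and amygdala (0.199), where the log2 difference of 0.37 turned to -0.07 without the libraries against their label.

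The dorsal striatum level of Adcy1 rested in part on the libraries of male KO mouse 10, at 1108 CPM, and female WT mouse 23, at 1305 CPM. The mean of 505 ± 361 CPM (SD, n = 12) fell to 364 ± 160 (SD, n = 10) without them. The log2 difference of ventral over dorsal striatum was -0.95 ± 0.24 (SE, adjusted p = 0.0034 by edgeR) with all libraries and -0.58 (adjusted p = 0.0488) without those that went against their label. Its adjusted p reached 0.147 over the alternative runs (edgeR or DESeq2).

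Adcy8, the other member stimulated by calcium and calmodulin, had a different order. It was lowest in dorsal striatum, with 6.53 to 22.8 CPM (median 12.1) in single libraries, and mean levels of 24.1 to 30.6 CPM in the other regions. In amygdala its libraries ran from 12.7 to 49.3 CPM (median 28.03) and in ventral striatum from 8.67 to 55.4 CPM (median 22.8), so both overlapped dorsal striatum. Amygdala was above dorsal striatum by a log2 difference of 1.20 ± 0.22 (SE), with adjusted p = 2.84e-06 by edgeR. Dorsal hippocampus was above dorsal striatum by 0.93 ± 0.21 (adjusted p = 0.000154), and ventral striatum was above dorsal striatum by 0.87 ± 0.21 (adjusted p = 0.0031; 0.84 and 0.0041 without the libraries against their label). Over the alternative runs (edgeR or DESeq2) the adjusted p reached 0.0976 for amygdala over dorsal striatum and 0.252 for ventral over dorsal striatum. The other neighbours in the order of Adcy8 did not pass the test.

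Adcy3, the cyclase of cilia and olfactory neurons, was lowest in dorsal hippocampus and cortex. Its libraries ran from 46.6 to 61.0 CPM (median 50.8) in dorsal hippocampus and from 37.4 to 69.1 (median 49.9) in cortex. They ran from 65.7 to 131 CPM (median 86.5) in ventral striatum, from 66.5 to 105 (median 83.0) in dorsal striatum and from 71.2 to 109 (median 87.3) in amygdala, and none of these overlapped dorsal hippocampus. Ventral hippocampus (53.4 to 99.3 CPM) and prefrontal cortex (58.8 to 100.1 CPM) lay between. The log2 difference of ventral striatum over dorsal hippocampus was 0.72 ± 0.10 (SE), with adjusted p = 1.57e-09 by edgeR, and that of prefrontal cortex over cortex was 0.58 ± 0.13 (adjusted p = 0.000277). With WT libraries alone the latter was 0.09 (adjusted p = 0.828). Among neighbours, ventral hippocampus was above dorsal hippocampus (adjusted p = 0.0097, across sets), and the other 5 pairs did not pass the test. That call held without the libraries against their label (0.0410), but over the alternative runs its adjusted p reached 0.549 (edgeR or DESeq2).

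Adcy2, stimulated by beta-gamma subunits, was highest in dorsal hippocampus, with 135 to 211 CPM (median 187), and in cortex, with 131 to 215 CPM (median 181). It was lowest in dorsal striatum, with 63.9 to 235 CPM (median 85.8), and amygdala, with 78.9 to 164 CPM (median 113). The log2 difference of dorsal hippocampus over dorsal striatum was 0.75 ± 0.14 (SE), with adjusted p = 5.60e-06 by edgeR, and 1.08 without the libraries against their label. The ranges overlapped through the same dorsal striatum libraries of male KO mouse 10 and female WT mouse 23, at 227 and 235 CPM. Without the libraries against their label, Adcy2 was also higher in ventral than in dorsal striatum (log2 0.35, adjusted p = 0.0227), where the difference was 0.07 with them. It was then also higher in cortex than in ventral hippocampus (log2 0.35, adjusted p = 0.0297), where the difference was 0.36 (adjusted p = 0.0823) with them. No neighbours in its order passed the test.

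Adcy7, the other member stimulated by beta-gamma subunits and known from immune cells, was highest in ventral striatum, with 4.07 to 28.5 CPM (median 10.8). Libraries had 3.89 to 9.58 CPM (median 6.12) in dorsal striatum, 2.69 to 26.6 (median 8.04) in amygdala and 2.02 to 19.998 (median 3.34) in dorsal hippocampus. In cortex and ventral hippocampus it rested on 1 to 6 and 1 to 23 reads a library, near the floor. The log2 difference of ventral striatum over dorsal hippocampus was 1.39 ± 0.30 (SE, adjusted p = 5.16e-05 by edgeR) and that over dorsal striatum was 1.101 ± 0.29 (adjusted p = 0.0063). The ranges overlapped in both cases. For ventral over dorsal striatum the adjusted p reached 0.181 over the alternative runs (edgeR or DESeq2). Prefrontal cortex was above cortex by 1.37 ± 0.54 (adjusted p = 0.0431), a call that ended without the libraries against their label (0.0942), with the mouse as a block (0.0673) and without mouse 2, 3, 4, 5, 6, 11, 12, 13 or 24 (0.0526 to 0.0920). No neighbours in its order passed the test.

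Adcy6, inhibited by calcium, was highest in prefrontal cortex, with 54.5 to 92.9 CPM (median 79.0), and amygdala, with 56.0 to 95.02 CPM (median 68.0). Dorsal striatum libraries had 22.4 to 74.97 CPM (median 41.1) and dorsal hippocampus libraries 34.1 to 50.1 CPM (median 45.8). The lowest amygdala library was above every dorsal hippocampus library but not above every dorsal striatum library. The log2 difference of amygdala over dorsal striatum was 0.71 ± 0.15 (SE, adjusted p = 7.89e-05 by edgeR; 0.94 without the libraries against their label), and that of prefrontal cortex over cortex was 0.55 ± 0.20 (adjusted p = 0.0301). The latter call ended without the prefrontal cortex library of female WT mouse 23 alone (adjusted p = 0.0530) and without mouse 3, 4, 10, 11 or 12 (up to 0.0858), and it held without all 9 libraries (0.0152). No neighbours in its order passed the test.

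Adcy9, the member with the largest adjusted p in the F test, had similar means in 5 of the regions. Its libraries ran from 37.8 to 106 CPM (median 79.2) in dorsal hippocampus and from 22.9 to 79.9 CPM (median 47.3) in amygdala, and these ranges overlapped. The other 5 region means lay between 57.5 and 62.2 CPM. Dorsal hippocampus was above amygdala by a log2 difference of 0.78 ± 0.16 (SE, adjusted p = 4.97e-05 by edgeR) and above its neighbour, dorsal striatum, by 0.35 ± 0.15 (adjusted p = 0.0482). The latter call held without the libraries against their label (0.0232). It ended with the mouse as a block (0.0706), with DESeq2 (0.0615), with no low-count filter (0.0578) and without mouse 1, 2, 4, 5, 6, 11, 13 or 24 (0.0632 to 0.139). None of the 12 contrasts across sets was called for Adcy9, where all 12 were called for Adcy1.

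Levels of the members moved together and against one another also within regions. Over the 47 deeper libraries, the correlation of log2 CPM as deviation from the region mean was -0.70 between Adcy7 and Adcy9, 0.69 between Adcy1 and Adcy2, 0.68 between Adcy1 and Adcy9, 0.64 between Adcy6 and Adcy8 and 0.62 between Adcy2 and Adcy6. Over the 42 of these libraries whose markers went with their label the values were -0.72, 0.50, 0.75, 0.50 and 0.43. These are descriptions: the points share mice and the library total, and several share a dissection. The deviation of Adcy1 correlated at 0.78 with that of the cortical excitatory score (0.67 over the 42 libraries) and that of Adcy2 at 0.75 (0.60). The deviation of Adcy6 correlated at -0.74 with that of the striatal projection neuron score, and at -0.48 over the 42 libraries. With the same score Adcy2 had -0.69 (-0.35 over the 42 libraries), Adcy8 -0.62 (-0.61) and, the other way, Adcy3 0.49 (0.39). The deviation of Adcy9 correlated at -0.61 with the astrocyte score, -0.57 with the oligodendrocyte score and -0.57 with the endothelial score, where Adcy7 had 0.57 with the astrocyte and 0.52 with the endothelial score. Over the 42 libraries these were -0.57, -0.57 and -0.62 for Adcy9 and 0.57 and 0.54 for Adcy7. With the astrocyte score Adcy3 also had -0.61 (-0.67 over the 42 libraries), and Adcy8 and Adcy6 had 0.48 and 0.43 (0.485 and 0.42). What part tissue make-up had in these correlations was not tested.

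**Figure D3:**
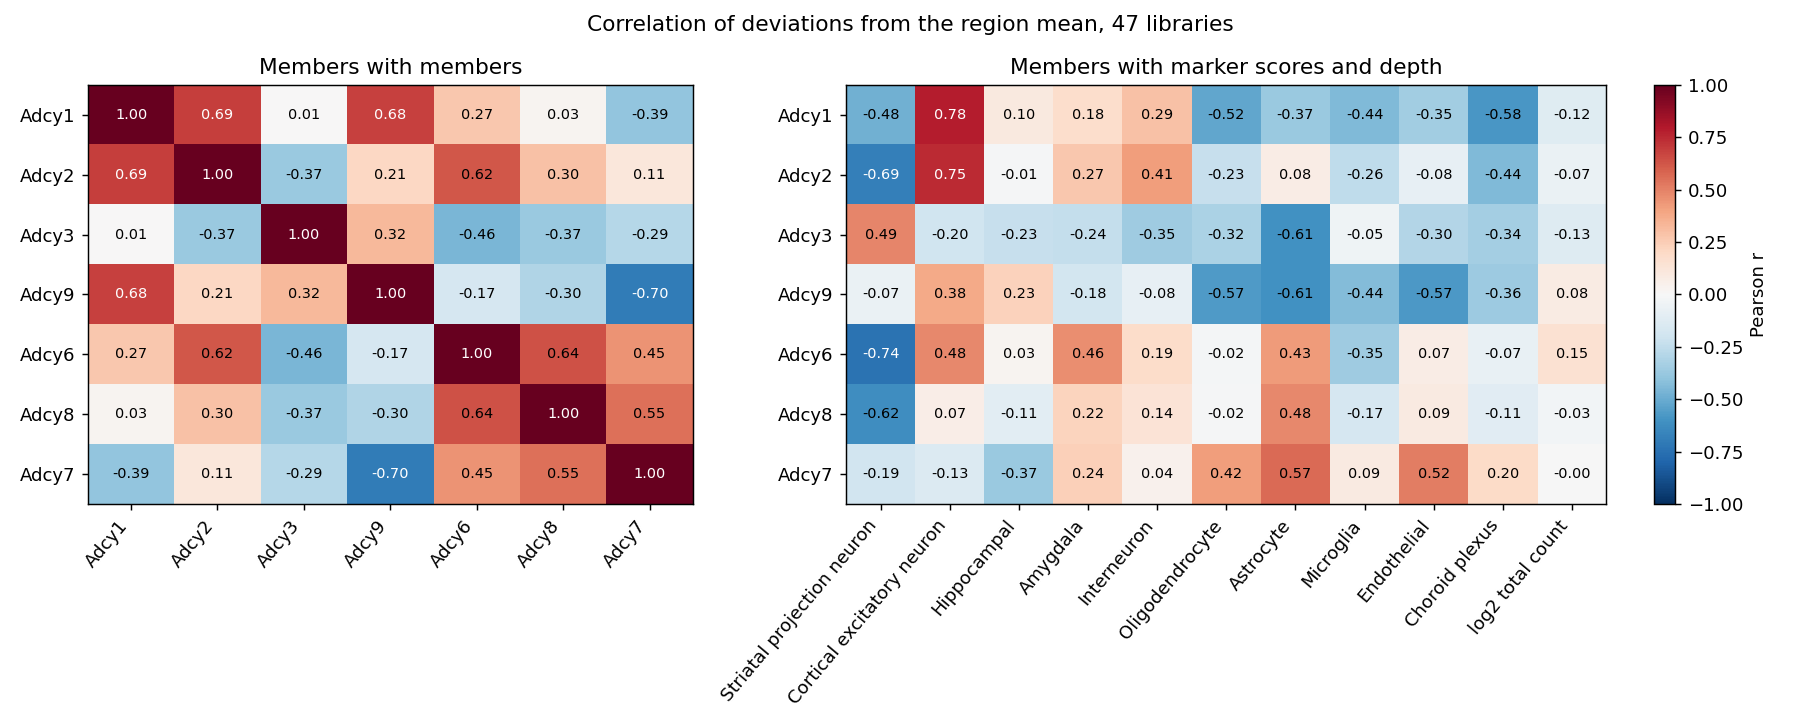
Pearson correlation of deviations from the region mean over the 47 deeper libraries, red for positive and blue for negative, between members (left) and of members with cell type scores and depth (right), with the value printed in each cell. Adcy7 deviates down where Adcy9 deviates up (r = -0.70), Adcy1 and Adcy2 deviate together (r = 0.69), and Adcy6 deviates down where the striatal score deviates up (r = -0.74, and -0.48 over the 42 libraries whose markers went with their label).

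Within ventral and dorsal striatum, the members divided by how they went with the striatal projection neuron score. Over 12 libraries each, Adcy6 correlated with it at -0.86 in ventral and -0.79 in dorsal striatum, Adcy8 at -0.82 and -0.68, and Adcy2 at -0.61 and -0.92. Adcy3 had 0.66 and 0.68. Without the 2 libraries against their label in each region the values were -0.68 and -0.68 for Adcy6, -0.80 and -0.66 for Adcy8, -0.60 and -0.72 for Adcy2, and 0.86 and 0.81 for Adcy3. Adcy7 had -0.63 in ventral and -0.51 in dorsal striatum with all libraries, and -0.74 and -0.385 without those libraries. The correlation of Adcy1 in dorsal striatum was -0.83 with all libraries and -0.34 without those 2. In ventral striatum the correlation of Adcy1 was -0.05 with all libraries and 0.51 without those 2. That of Adcy9 was 0.78 in ventral and -0.46 in dorsal striatum with all libraries, and 0.83 and 0.33 without them, so its negative sign in dorsal striatum rested on the libraries of male KO mouse 10 and female WT mouse 23. The points share the region's dissection and the library total.

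**Figure D4:**
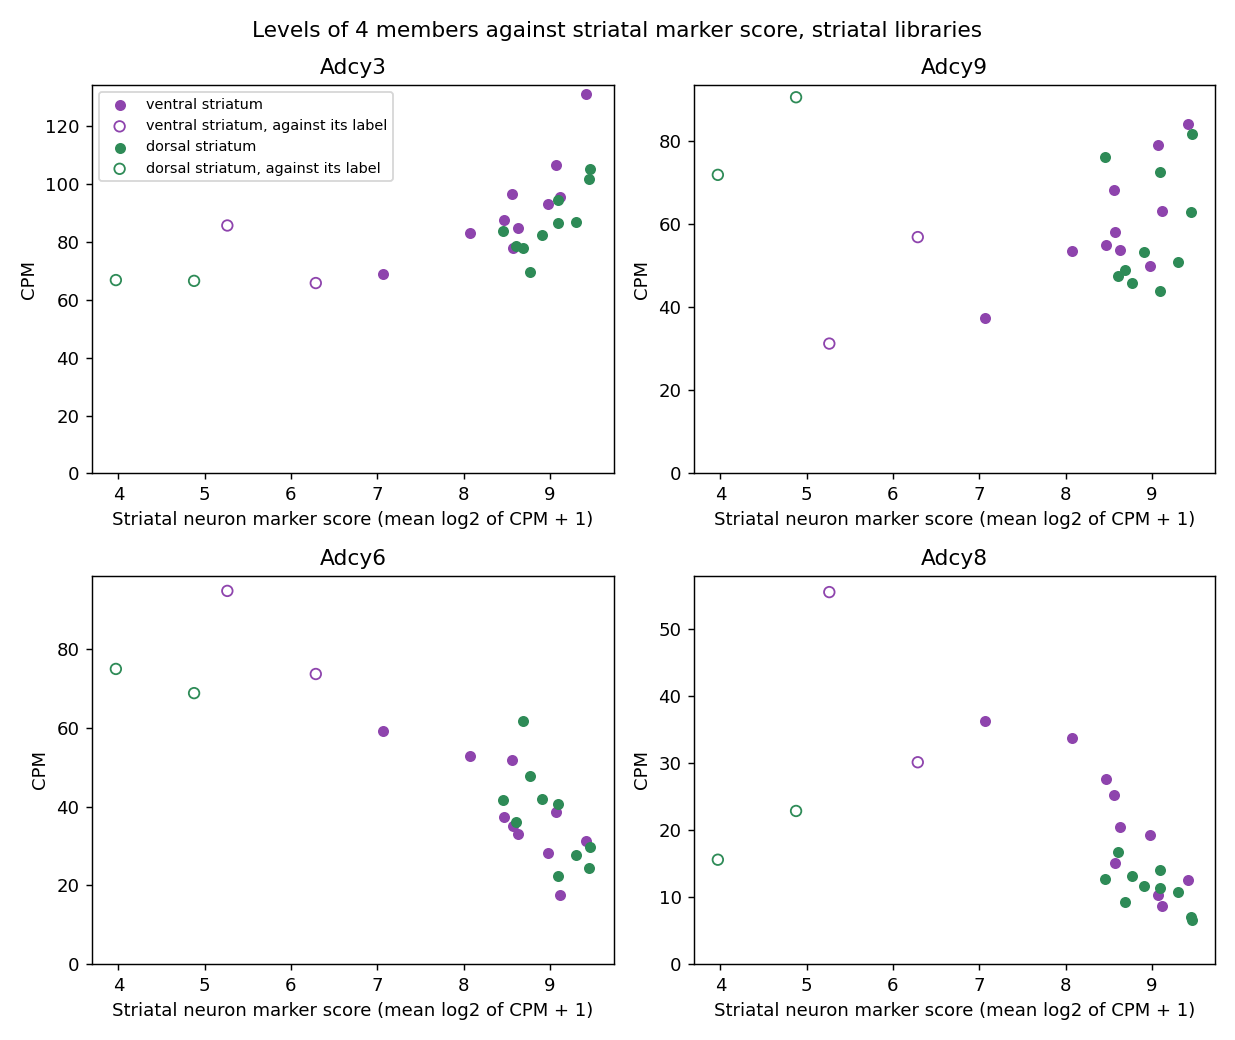
CPM of Adcy3, Adcy9, Adcy6 and Adcy8 against the striatal projection neuron score (mean log2(CPM + 1) of 9 markers) in the 12 ventral and 12 dorsal striatum libraries, with open circles for libraries whose markers go against their label. Adcy6 and Adcy8 are lower where the score is higher in both regions (r = -0.86 and -0.82 in ventral striatum), Adcy3 is higher (r = 0.66), and Adcy9 has 0.78 in ventral and -0.46 in dorsal striatum, the latter turning to 0.33 without the 2 open circles.

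Genes whose log2 CPM went most closely with each member over the same 47 libraries, out of 10215 genes with a mean of at least 10 CPM, were found by Pearson correlation. For Adcy1 they were Grin2a, an NMDA receptor subunit, at 0.93, Klf13, a transcription factor, at 0.92 and Dagla, which makes the endocannabinoid 2-AG, at 0.92. For Adcy2 they were Septin3 (0.88), Camk2g, a calcium and calmodulin-dependent kinase subunit (0.87), and Abcc8, a subunit of ATP-sensitive potassium channels (0.86). For Adcy3 they were Itfg1 (0.89) and the adhesion molecules Alcam and Cdh13 (0.88 each). For Adcy6 they were the phosphatase Ppm1m, the exchange factor Farp1 and the T-type calcium channel Cacna1g (0.88 each). For Adcy7 they were the splicing regulator Nova1 (0.88), Flii (0.86) and Nynrin (0.85). For Adcy8 they were Arl4c (0.84), Disp2 (0.83) and Camk2n2, a kinase inhibitor (0.83). For Adcy9 they were Usf3 (0.90), the sorting receptor Sort1 (0.90) and Cnksr2 (0.88). Of these 21 genes, 15 were named again without the libraries against their label, and 7 with all 78 libraries.

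Other genes of the cAMP pathway were followed as a list of 62. Between ventral and dorsal striatum, 8 of the 62 passed the test, 3 higher and 5 lower in ventral striatum (background 12.8% of genes). Without the libraries against their label 16 passed, 10 higher and 6 lower (background 18.7%). The largest differences were those of Rapgef4, an exchange factor activated by cAMP (log2 -1.09, adjusted p = 2.23e-07 by edgeR), Prkar2a, a regulatory subunit of protein kinase A (0.61, 8.67e-07), and Gnb4, a G protein beta subunit (0.55, 0.0162). Between dorsal striatum and dorsal hippocampus 43 of the 62 passed, 29 higher and 14 lower in dorsal striatum (background 51.2%). Ppp1r1b, the phosphatase inhibitor of striatal neurons, had a log2 difference of 4.61, and the phosphodiesterases Pde10a and Pde2a had 3.81 and 2.91. Of 15 phosphodiesterases 11 were higher and 1 lower in dorsal striatum, where 1 of the 7 cyclases described here, Adcy3, was higher and 4 were lower. Adcy5, which is not among the 7, was higher in dorsal striatum by a log2 difference of 3.13 (adjusted p = 2.27e-16 by edgeR). Of 9 genes of protein kinase A and its inhibitors 3 were higher and 5 lower. G protein genes had 6 higher and 3 lower of 15, and anchoring proteins 5 higher and 1 lower of 10. Nuclear effectors with Ppp1r1b had 2 higher and 3 lower of 8, calmodulin genes 1 and 1 of 3, and exchange factors 1 and 0 of 2. The share of all genes called in each direction is not given.

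KO and WT were compared within each region with sex as a term. None of the 47 tests on members passed the threshold in edgeR's quasi-likelihood test, and none did with DESeq2. Beside this count, the share of all genes called was 0.00708% in ventral striatum, 0.00689% in dorsal striatum, 0.00657% in amygdala, 0.0069% in dorsal hippocampus, 0.00947% in cortex, 0.00929% in ventral hippocampus and 0.0925% in prefrontal cortex. At an unadjusted p under 0.05 there were 5 member tests, 3 of them in cortex (6.46% of all genes) and 2 in prefrontal cortex (8.63%). There were none in ventral striatum (7.29% of all genes), dorsal striatum (1.54%), amygdala (3.52%), dorsal hippocampus (2.84%) and ventral hippocampus (5.01%). Log2 ratios of KO over WT lay between -0.69 and 0.54, and the smallest adjusted p was 0.184. Adcy7 was not tested in cortex and ventral hippocampus, where its counts were too low.

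**Figure D5:**
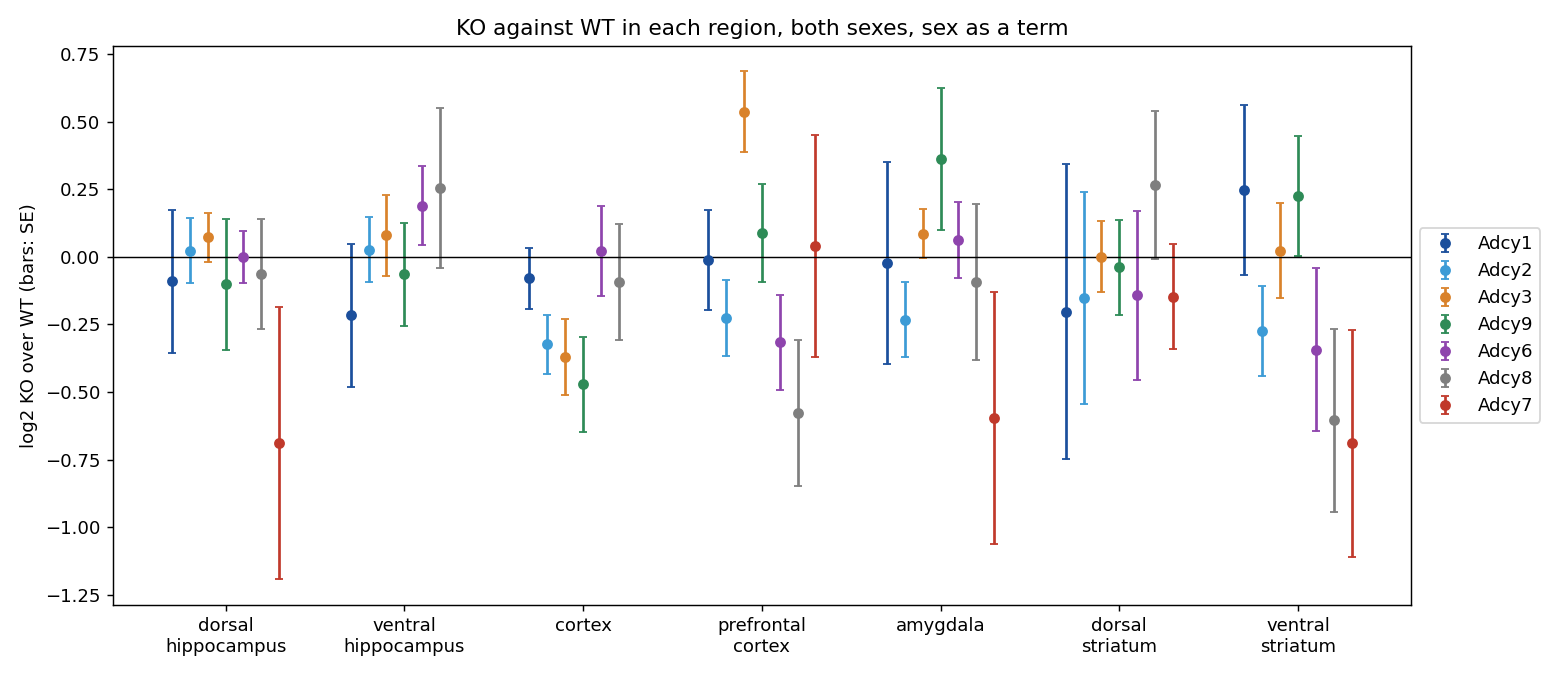
Log2 ratio of KO over WT for each member and region from edgeR (both sexes, sex as a term), with bars of 1 SE, and a line at 0. All 47 ratios lie between -0.69 and 0.54, and none passed the adjusted threshold.

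In cortex, 3 members had lower levels in KO at the unadjusted threshold only. Adcy3 had 37.4, 43.3, 44.4, 46.5, 47.3 and 49.9 CPM in KO and 51.3, 54.5, 55.5, 58.7 and 69.1 CPM in WT. Every KO library was below every WT library. How many of all genes stood apart this way over both sexes is not given here, so the separation is not read as a result about Adcy3. Shares within a sex are given below. The log2 ratio was -0.37 ± 0.14 (SE, unadjusted p = 0.0138, adjusted p = 0.747 by edgeR).

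Adcy2 in cortex had 131 to 193 CPM (median 157) in KO and 181, 194, 195, 209 and 215 CPM in WT, so that 1 KO library, that of female mouse 5, lay above the lowest WT library. Its log2 ratio was -0.32 ± 0.11 (SE, unadjusted p = 0.0062, adjusted p = 0.747 by edgeR). Adcy9 had 34.1 to 67.0 CPM (median 52.3) in KO and 51.3, 61.1, 62.7, 87.8 and 97.1 CPM in WT, with a log2 ratio of -0.47 ± 0.18 (SE, unadjusted p = 0.0123, adjusted p = 0.747). The Adcy9 ranges overlapped. The 7-gene sum in cortex was 140 ± 16.1 CPM per kb (SD, n = 6) in KO and 160 ± 18.5 (SD, n = 5) in WT. The ranges of all 10 cell type scores overlapped between KO and WT in cortex. The part of tissue make-up in the values of these members was not tested.

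In prefrontal cortex the sign for Adcy3 was the opposite. It had 82.6, 92.8, 98.2 and 100.1 CPM in KO and 58.8, 64.2, 64.6 and 73.4 CPM in WT, again without overlap. Here too the share of all genes that stood apart over both sexes is not given, and the separation is not read as a result. The log2 ratio was 0.54 ± 0.15 (SE, unadjusted p = 0.0024, adjusted p = 0.184 by edgeR), and 0.66 (adjusted p = 0.176) without the libraries against their label. Adcy8 had 22.2, 22.8, 22.8 and 32.7 CPM in KO and 23.2, 25.4, 47.2 and 48.2 CPM in WT, with overlap, and a log2 ratio of -0.58 ± 0.27 (SE, unadjusted p = 0.0488, adjusted p = 0.572), and -0.76 (adjusted p = 0.375) without the libraries against their label. The genotypes also stood apart in striatal markers there. The striatal projection neuron score was 5.82, 5.96, 6.92 and 7.41 in KO and 3.88, 4.01, 4.56 and 4.89 in WT, and the oligodendrocyte score was 6.62 to 8.82 in KO and 5.98 to 6.94 in WT. The part of these markers in the Adcy3 and Adcy8 values was not tested. The striatal Adcy5 had a log2 ratio of 0.82 in prefrontal cortex (unadjusted p = 0.00108, adjusted p = 0.125), and 0.67 (adjusted p = 0.176) without those libraries. On the cAMP list, the genes called between KO and WT with both sexes were Ppp1r1b (log2 2.29, adjusted p = 0.0123) and Pde10a (2.01, 0.0357), both in prefrontal cortex and both among the striatal markers. Without those libraries Ppp1r1b had 2.39 and Pde10a 1.72 (adjusted p = 0.0011 each by edgeR). A G protein subunit gene that is not among the striatal markers, Gng7, was then also called. That made 3 of 60 genes of the list, where 0.281% of all genes were called.

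In the other regions the member with the smallest p did not reach the unadjusted threshold. Adcy8 in ventral striatum had 8.67 to 30.1 CPM (median 19.8) in KO and 12.5 to 55.4 CPM (median 30.7) in WT, with a log2 ratio of -0.60 (edgeR, unadjusted p = 0.0976). In dorsal striatum Adcy8 had 6.99 to 22.8 CPM (median 12.3) in KO and 6.53 to 15.6 CPM (median 12.1) in WT, with a ratio of 0.27 (unadjusted p = 0.350). Without the libraries against their label these ratios were -0.55 in ventral and 0.04 in dorsal striatum. Ratios were -0.23 for Adcy2 in amygdala (0.125), -0.69 for Adcy7 in dorsal hippocampus (0.195) and 0.19 for Adcy6 in ventral hippocampus (0.210). The Adcy7 value rested on the WT library of female mouse 23, at 19.998 CPM where the other 5 WT libraries had 2.09 to 6.54 CPM, and it was 0.13 without that mouse.

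Within a sex, none of 87 member tests passed the adjusted threshold with edgeR or DESeq2, and 5 had an unadjusted p under 0.05 by edgeR. The share of all genes called was 0.00706% in male amygdala, 0.00721% and 0.00707% in male and female dorsal hippocampus, 0.0103% and 0.0398% in male and female cortex, 0.00996% and 0.00993% in male and female ventral hippocampus, 0.452% in female prefrontal cortex and 0% in the striatum of either sex and in female amygdala. At an unadjusted p under 0.05, the 4 comparisons with a member had 9.84% of all genes in male ventral striatum, 2.95% in male cortex, 10.6% in female cortex and 9.08% in female prefrontal cortex. The comparisons with none had 1.91% and 2.25% in male and female dorsal striatum, 2.85% and 2.97% in amygdala, 3.53% and 1.93% in dorsal hippocampus, 8.08% and 3.93% in ventral hippocampus, and 2.13% in female ventral striatum. In male ventral striatum Adcy7 had a log2 ratio of -1.22 (edgeR, unadjusted p = 0.0192), with 4.07 to 11.4 CPM in KO and 12.1 to 28.5 CPM in WT, and Adcy8 had -0.95 (unadjusted p = 0.0403), with 10.4 to 30.1 CPM in KO and 27.6 to 55.4 CPM in WT. Without the libraries of mice 10 and 13 the Adcy7 ratio was -0.97, and the adjusted p-values were 0.427 for Adcy7 and 0.238 for Adcy8. The other 3 tests, all by edgeR, were those of Adcy2 in male cortex (-0.33, unadjusted p = 0.0291), Adcy9 in female cortex (-0.66, unadjusted p = 0.0096) and Adcy3 in the prefrontal cortex libraries labelled female (0.45, unadjusted p = 0.0286). Of the 3 KO and 2 WT libraries in this last test, that of WT mouse 23 carried the sex-chromosome genes of a male and that of KO mouse 5 had a striatal score of 7.41. Without both, the Adcy3 ratio was 0.66 (adjusted p = 0.100 by edgeR), with 1 WT library assumed to vary like the 2 KO libraries.

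KO and WT ranges within a sex did not overlap in 11 of 91 cases of a member in a region, 5 higher and 6 lower in KO. The share of all genes that stood apart was 7.58% to 24.8% in the groups that held a case, so the count is not read as a result about the members. Shares for the groups without a case are not given. Adcy3 stood apart in cortex of both sexes, lower in KO, and in prefrontal cortex libraries labelled female, higher in KO. The share of all genes that stood apart was 8.62% in male cortex, 24.8% in female cortex and 23.1% in female prefrontal cortex. The other cases were Adcy2 in male cortex, Adcy7 in male and female cortex, male ventral striatum (15.7% of genes) and female dorsal striatum (7.58%), Adcy8 in male dorsal hippocampus (8.16%), and Adcy6 in female amygdala (16.5%) and male ventral hippocampus (11.9%). Of the 11 cases 5 include a library against its label, those of prefrontal cortex, ventral and dorsal striatum, amygdala and ventral hippocampus. The Adcy7 cases in cortex rest on few reads a library, near the floor.

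The genotype effect passed the threshold for a difference between males and females in none of 40 interaction tests on members, by edgeR or DESeq2, and none had an unadjusted p under 0.05 by edgeR. The share of all genes called was 0% in each of the 6 regions, and the share with an unadjusted p under 0.05 was 3.84% in ventral striatum, 4.76% in dorsal striatum, 4.42% in amygdala, 1.33% in dorsal hippocampus, 5.41% in cortex and 6.63% in ventral hippocampus. The smallest adjusted p of a member was 0.769. With each mouse's 2 striatal and 2 hippocampal regions averaged, limma called none of the 7 members over 12 mice (0.00658% of all genes called), and none had an unadjusted p under 0.05 (3.99% of all genes). Log2 ratios lay between -0.09 (Adcy7) and 0.05 (Adcy3), with adjusted p = 0.999 for each member. The 95% confidence intervals of the fold were 0.811 to 1.15 for Adcy1, 0.822 to 1.08 for Adcy2, 0.933 to 1.14 for Adcy3, 0.783 to 1.16 for Adcy6, 0.870 to 1.22 for Adcy9, 0.759 to 1.25 for Adcy8 and 0.653 to 1.35 for Adcy7. These intervals rest on the spread between mice.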

How the data were processed

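Poly(A) RNA of dissected mouse brain regions was sequenced, and the authors deposited a table of read counts per gene symbol for each sex, with no normalization. Per the submitters' processing notes, STAR 2.5.2a, SAMtools 1.1, HTSeq 0.6.1, R 4.0.2 and the GRCm38 or mm10 genome were used; the strand setting and annotation are not given in the sources used here. Libraries were assigned from their titles, and total counts set the depth: 1 read is a larger CPM in the 31 shallower libraries.

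CPM was computed by column total, and exonic lengths were looked up by symbol in GENCODE M21. Counts as deposited were tested with edgeR 4.0.16 (R 4.3.3, TMM, filterByExpr with minimum counts of 10 and 15, quasi-likelihood test), with Benjamini-Hochberg adjustment over all genes tested and a threshold of 0.05. KO was set against WT per region with sex as a term, per sex and region (male prefrontal cortex, with 1 KO library, was not tested), as an interaction with sex, and per mouse over 4 regions with limma 3.58.1 (log2 CPM, prior count 2). Regions were compared over all 78 libraries with sex and genotype group as a term. DESeq2 1.42.0 was an alternative. The fits were tested on simulated data. Libraries of different regions come from the same mouse, so the mouse number pairs them; residuals of same-mouse libraries correlated at 0.0146 on average over 210 pairs and at -0.0070 over 423 other pairs.

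Named were every member in each region, the member with the smallest p per region between KO and WT, any with an unadjusted p under 0.05, neighbouring and extreme regions, the 3 most correlated genes per member, and called or most changed genes of the cAMP list. The members and lists were chosen with earlier results of these data known. Leaving out the 9 libraries whose markers go against their label (striatal score limit 7, hippocampal score limit 5) was chosen after seeing the data.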

Additional observations from a re-analysis of the deposited data

Results flagged for a closer look

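Among 98 groups of 4 to 6 libraries, one for each member, genotype and region, 7 held a library far from the others by Dixon's test, which by chance marks about 1 in 20 groups. Adcy1 in WT cortex was 1271 CPM in male mouse 13 where the others had 877 to 952. Adcy2 in KO dorsal striatum was 227 CPM in male mouse 10 (others 63.9 to 110.0), a library whose markers went against its label. Adcy3 in WT ventral striatum was 131 CPM in female mouse 24 (others 68.8 to 87.3). Adcy7 stood out in 3 groups: at 26.6 CPM in WT amygdala of male mouse 12 (others 4.67 to 10.8), at 19.998 CPM in WT dorsal hippocampus of female mouse 23 (others 2.09 to 6.54) and at 27.6 CPM in KO ventral hippocampus of male mouse 10 (others 3.32 to 5.67), the last again a library against its label. Adcy8 in KO prefrontal cortex was 32.7 CPM in female mouse 4 (others 22.2 to 22.8).

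In 3 cases all KO libraries of a sex lay below all WT libraries in one region and above them in another. The difference between the regions was not tested. For Adcy3 in libraries labelled female, the log2 ratio of mean KO over mean WT CPM was -0.35 in cortex and 0.46 in prefrontal cortex, a difference of -0.81. In prefrontal cortex the WT library of mouse 23 carried the sex-chromosome genes of a male and the KO library of mouse 5 had striatal markers. Without them Adcy3 was 92.8 and 98.2 CPM in 2 KO libraries and 58.8 CPM in 1 WT library. For Adcy7 in females it was 1.06 in cortex and -0.44 in dorsal striatum, a difference of 1.51. For Adcy7 in males it was 1.39 in cortex and -1.25 in ventral striatum, a difference of 2.64. The cortex values of Adcy7 rest on 1 to 6 reads a library. The striatal values include libraries against their label, those of female WT mouse 23 in dorsal striatum (9.58 CPM) and of male KO mouse 10 and male WT mouse 13 in ventral striatum (9.86 and 28.5 CPM).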

How the results depend on the processing

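No member was called between KO and WT under any alternative run (DESeq2's size factors or test, no low-count filter, no sex term, each mouse left out, without the libraries against their label). The F test over regions called 7 members throughout (86.3% of all genes without the libraries against their label). Member calls in contrasts within a set, 28 of 63, were 25 with the mouse as a replicate block, 30 without the libraries against their label, 17 with WT libraries and 16 with female libraries. Across sets, 36 of 84 became 38 with the block, 45, 23 with WT and 22 with male libraries. Leaving out each mouse gave 23 to 29 and 31 to 44. Within a set, 12.8% to 52.1% of all genes were called in a contrast with all libraries, and 18.7% to 54.8% without those against their label. Across sets these shares were 17.1% to 53.4% and 16.8% to 55.1%. Shares for the other settings are not given, so the changes in count are not read as results about the members.

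The mean share of Adcy1 depends on length scaling and on Adcy5. As a share of counts it was 41.8% in ventral striatum, 57.02% in dorsal striatum, 50.5% in amygdala, 79.9% in dorsal hippocampus, 72.0% in cortex, 68.8% in ventral hippocampus and 66.2% in prefrontal cortex. With Adcy5 in the family it was 10.3%, 17.4%, 44.3% and 35.8% in ventral striatum, dorsal striatum, cortex and prefrontal cortex, and with all 10 genes 10.3%, 17.3%, 44.1% and 35.6%. Of the 21 most similar genes, 7 were shared with all libraries and 9 with Spearman correlation.

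Signs turned mostly for small differences, and the cause was not tested. Per mouse, Adcy1 was 0.043 with 3 regions, and without the mice of libraries against their label Adcy6 was 0.031, Adcy7 0.0020, Adcy8 0.0071 and Adcy9 -0.037. Leaving out each mouse gave -0.13 to 0.0066 for Adcy1, -0.17 to 0.015 for Adcy6, -0.25 to 0.086 for Adcy7, -0.16 to 0.053 for Adcy8 and -0.0020 to 0.14 for Adcy9, and between KO and WT -0.89 to 0.13 for Adcy7 in dorsal hippocampus and -0.024 to 0.38 for Adcy8 in dorsal striatum. Of ventral over dorsal striatum, Adcy3 was -0.073 in males, Adcy6 -0.17 in females, Adcy9 0.21 in females and 0.035 without the libraries against their label, and leaving out each mouse gave -0.0089 to 0.23 for Adcy2, -0.017 to 0.12 for Adcy3 and -0.061 to 0.17 for Adcy6. Adcy9 in cortex over ventral hippocampus was -0.000454 in males. Adcy1 in ventral hippocampus over prefrontal cortex was -0.17 in females and -0.035 to 0.20 leaving out each mouse, and in dorsal striatum over amygdala it was -0.070 without the libraries against their label. Depth limits Adcy7 in cortex, at 1 to 6 reads a library.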
